A study of Rattus norvegicus with 22 samples.

Results

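The genes described here encode the neurofilament subunits and other parts of the neuronal cytoskeleton, read in rat spinal cord after contusion injury. They were taken by symbol from a list of 9: Nefl, Nefm, Nefh, Ina, Prph, Tubb3, Map2, Stmn2 and Gap43. All 9 were measured, by 15 of the 31042 probe sets tested, out of 14217 genes with a probe set that carries only their symbol. The brightest probe set on average stands for each gene, and statements on a gene are about that probe set unless another is named.

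Neurofilaments are the intermediate filaments of axons. They are copolymers of a light chain (Nefl), a medium chain (Nefm), a heavy chain (Nefh) and, in the central nervous system, α-internexin (Ina). Peripherin (Prph) joins them in neurons that send axons to the periphery, motor neurons among them. Tubb3 is the β-tubulin used as a marker of neurons, Map2 binds the microtubules of dendrites, Stmn2 is a tubulin-binding protein of growing axon tips, and Gap43 is a membrane protein of growth cones that is known as a mark of axons growing or regrowing. In spinal cord the neurofilament messages come mainly from the cell bodies of the gray matter, while most neurofilament protein lies in the axons of the white matter.

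The tissue was rat spinal cord, hybridised as total RNA to Affymetrix arrays with 1 array per sample, 22 in all. Strain and age of the animals are not given in the sources used here. Uninjured cord has 3 arrays of normal cord and 3 after a laminectomy, the removal of the bone over the cord without injury to it. Contused cord had been struck at thoracic level 10 with a 10 g weight let fall from 25 mm, and was collected after 24 h. Contusion alone has 2 arrays. A further 14 arrays come from contused cord that was also treated, and the numbers given for each treatment are of arrays. Clenbuterol, a β2-adrenergic agonist, was given to 2 at a labelled 150 mg/kg, a very high dose for this drug whose unit could not be checked. X-irradiation of 10 Gy was given to 3, and tempol, a nitroxide scavenger of superoxide, to 3 at 275 mg/kg, all at 20 min after the blow. Buthionine sulfoximine (BSO), which blocks the synthesis of glutathione, was given to 3 at 150 mg/kg 24 h before the blow, and 3 more received both BSO and tempol. The labels do not say that the arrays come from different animals, so the p-values speak of the spread among arrays, which may in part be technical.

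Of the 9 genes, 4 have an upstream window in the RefSeq promoter table of assembly GRCr8. The windows of Ina and Tubb3, a central neurofilament subunit and the neuronal tubulin, are shown because both genes stood lower in contused than in normal cord and their windows lie outside the annotated gene. Each runs over the 250 bases before the start on the plus strand, Ina at chr1:255837879-255838128 and Tubb3 at chr19:68365437-68365686. Capitals mark matches on either strand to the letters TATAA of a TATA box, to GGGCGG for the GC box, to CAGCTG for an E box and to the CCAAT box.
Ina: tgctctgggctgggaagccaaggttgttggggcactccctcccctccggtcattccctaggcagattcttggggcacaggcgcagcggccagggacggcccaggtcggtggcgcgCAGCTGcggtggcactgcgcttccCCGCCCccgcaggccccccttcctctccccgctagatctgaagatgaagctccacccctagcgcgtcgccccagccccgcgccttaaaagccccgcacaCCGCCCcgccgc
Tubb3: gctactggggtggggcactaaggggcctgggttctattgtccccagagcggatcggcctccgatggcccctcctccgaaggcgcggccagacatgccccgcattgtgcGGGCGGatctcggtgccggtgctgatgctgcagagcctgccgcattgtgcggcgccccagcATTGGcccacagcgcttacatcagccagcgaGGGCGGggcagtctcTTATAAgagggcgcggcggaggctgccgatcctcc
Ina has its E box 135 bases before the start and GC boxes on the opposite strand at 111 and 12. Tubb3 has the TATA letters at 34 bases, overlapped by its reverse complement at 35, with GC boxes at 142 and 50 and CCAAT on the opposite strand at 81. Among 33469 windows of this length, 24.0% hold the TATA letters, 30.5% the GC box, 12% the E box and 34.0% the CCAAT box. The Ina window is 70.8% G and C and the Tubb3 window 68.0%, against a median of 51.2% over all windows. A match to these letters is a description of the window and not a binding site. In the gene table of the same assembly Nefl and Nefm are neighbours, with 1 gene and 0 protein-coding genes between them.

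The deposited signals are linear intensities that the authors' processing brought to a common mean on every array, and all differences below are of their log2 values. Laminectomy 2 and normal 1 stand apart from the rest. Their median correlation with the other arrays is 0.667 and 0.685, against 0.725 to 0.785 for the other 20, and their hybridization spikes read 14.19 and 13.23 in log2 signal against at most 13.01 elsewhere. These 2 arrays also have the highest mean level of the 9 genes, at 1.55 and 1.30 SD above the gene averages, and values without them are given beside the main results. The log2 signal of the 3′ probes of the GAPDH control over its 5′ probes, a measure of RNA integrity, averaged 0.64 on uninjured (0.47 without normal 1) and 0.37 on contused arrays, and its part in the results was not tested. General neuron markers were present in all groups, with the synaptic gene Snap25 between 870.2 and 8666 on every array, and their summed signal ran from 16835 to 30897 on uninjured and from 8336 to 20951 on contused arrays. In such bulk tissue, fewer neurons and less RNA per neuron cannot be told apart.

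**Figure D1:**
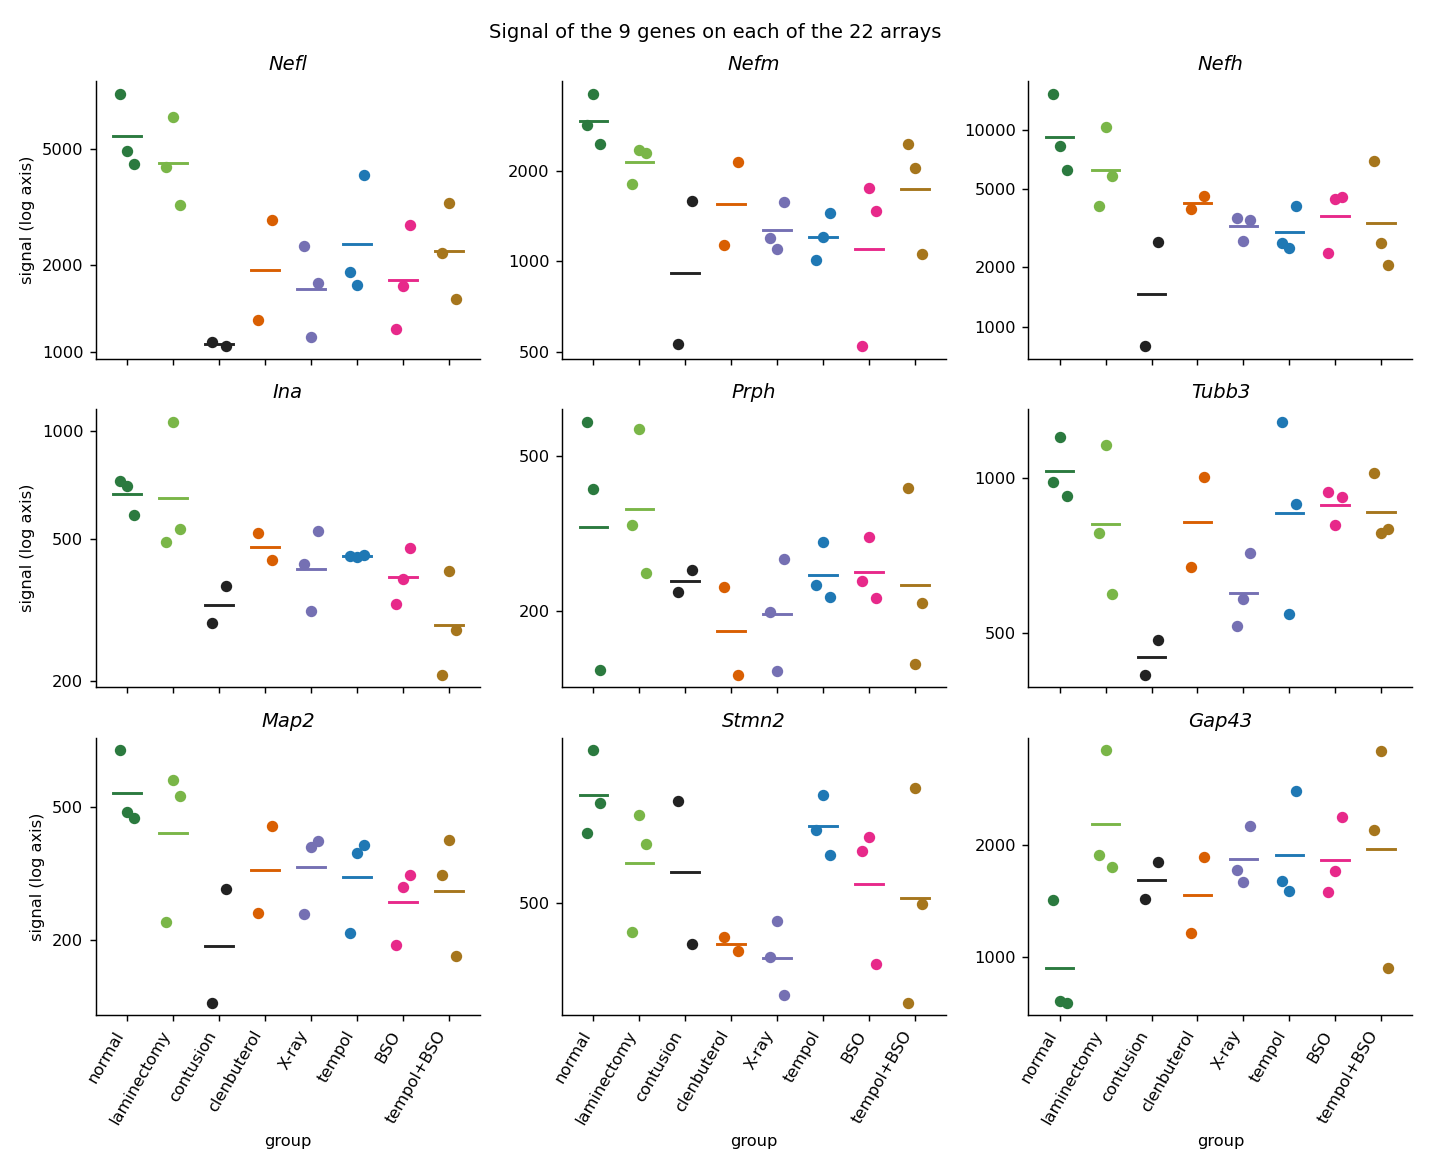
Signal of each gene on every array, on a log axis, by group. Points are single arrays and bars are geometric means of the group. Nefl lies lowest in untreated contusion, with both arrays below all 20 others, and the mean of Gap43 is highest after laminectomy and lowest in normal cord.

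Injured cord had less message of the neurofilament light chain. Nefl was 2.80-fold lower in all contused than in all uninjured arrays, and it was the only gene of the 9 to pass the test, while the other neurofilament subunits, Map2 and peripherin stood lower without passing. Gap43 was the only gene above zero. This comparison gives equal weight to contusion and its 5 treated groups on the contused side, and to normal and laminectomy on the other.

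Nefl encodes the light chain, on which assembly of the filament depends. In normal cord its signal was 7743, 4932 and 4421, and after laminectomy it was 4317, 6455 and 3198.5. The 2 arrays of contusion alone read 1082 and 1047. Over all 16 contused arrays the lowest was 1047, the median 1709 and the highest 4056. The pools overlapped through only 2 contused arrays, tempol 3 at 4056 and tempol plus BSO 2 at 3260.3, which lay above laminectomy 3. The difference was −1.49 ± 0.29 (log2 ± SE; limma, adjusted p = 0.0319). In this comparison 0.319% of all probe sets passed at an adjusted p under 0.05, and only 0.058% lay lower on all contused than on all uninjured arrays, which no member did.

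The size of the Nefl difference moved little when arrays were left out singly, from −1.35 to −1.61, but its place past the threshold did not last. It was lost without laminectomy 1 (adjusted p = 0.0671) or 2 (0.101), contusion 1 (0.0624) or 2 (0.0558), clenbuterol 1 (0.0622), X-ray 2 (0.0571) or 3 (0.053), tempol 1 (0.0536), and normal 1 (0.106), 2 (0.0647) or 3 (0.0536), 11 of the 22 arrays in all. Without laminectomy 2 and normal 1 it was −1.23 ± 0.33 with an adjusted p of 0.213. The second Nefl probe set gave −1.13 ± 0.27 (adjusted p = 0.0956). On it normal cord read 4109, 2141 and 1899, laminectomy 1414, 3557 and 1864, and contusion 716.2 and 985.6. Both probe sets thus had the 2 contusion arrays below every uninjured array. Here and for the genes below, the share of all probe sets with contusion arrays so placed, or below all other arrays, was not counted. Both contusion arrays lay below all normal arrays for 11.6% of probe sets, and below all laminectomy arrays for 10.3%.

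Nefh encodes the heavy chain, whose long phosphorylated tail projects from the filament. In normal cord it read 15189, 8282 and 6208, after laminectomy 4076, 10285 and 5808, and in contusion 797.1 and 2704. All 16 contused arrays ran from 797.1 to 6924 with a median of 3103. Both contusion arrays lay below every uninjured array, while the contused pool as a whole overlapped the uninjured one. The pooled difference was −1.33 ± 0.33 (limma, adjusted p = 0.0995), and −0.97 (0.502) without laminectomy 2 and normal 1. It passed when 32 was added to the signals before the logarithm (−1.32, adjusted p = 0.0458) and with the trend and robust settings of eBayes (−1.33 ± 0.29, adjusted p = 0.0307).

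Nefm encodes the medium chain. Normal cord read 2834, 3612 and 2453, laminectomy 1808, 2342 and 2289, and contusion 531.5 and 1584. The contusion arrays differed almost 3-fold from each other, and both lay below every uninjured array. The pooled difference was −0.98 ± 0.30 (adjusted p = 0.215), and −0.95 without laminectomy 2 and normal 1. Contused arrays ran up to 2458, inside the uninjured range.

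Ina, the subunit that neurons of the brain and cord make before the others in development, read 723.8, 701.6 and 581.6 in normal cord, 489.3, 1061 and 531.4 after laminectomy, and 289.7 and 367.6 in contusion. Again both contusion arrays were the lower ones. Over all contused arrays the range was 208.0 to 526.5 and the difference −0.78 ± 0.23 (adjusted p = 0.195). The mean of its 2 probe sets gave −0.38. The second of these, which reads between 21.1 and 445.5 without order among the groups, differed by only 0.03 ± 0.57.

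Prph behaved less evenly. Its signal was 611.8, 410.7 and 140.7 in normal cord, 332.2, 586.2 and 249.9 after laminectomy, and 224.4 and 255.2 in contusion, so normal cord alone spanned all other arrays but 2. The pooled difference of −0.64 ± 0.31 (adjusted p = 0.5) shrank to −0.41 without normal 1 and −0.24 without laminectomy 2 and normal 1.

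Tubb3, Map2, Stmn2 and Gap43 belong to microtubules, dendrites and growth cones. Tubb3 read 983.5, 1201 and 923.0 in normal cord, 781.0, 1157 and 596.0 after laminectomy, and 416.1 and 485.0 in contusion. The contusion arrays were the lowest 2 of all 22. With the treated groups included the difference was only −0.34 ± 0.23 (adjusted p = 0.646). This probe set is of a type that may also read related tubulin transcripts, and the other Tubb3 probe set, which ran from 208.9 to 424.2, gave 0.04 ± 0.21.

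Map2 read 740.9, 482.6 and 465.1 in normal cord, 227.3, 605.0 and 539.3 after laminectomy, and 130.2 and 285.2 in contusion. Contusion lay below normal cord, while laminectomy 1 lay between the contusion arrays. The pooled difference was −0.79 ± 0.29 (adjusted p = 0.328). A weaker probe set, reading at most 152.1, gave −1.44 ± 0.57.

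Stmn2 read 649.2, 883.7 and 724.5 in normal cord, 448.1, 695.1 and 623.3 after laminectomy, and 730.8 and 429.5 in contusion, with overlap on every side. The pooled difference was −0.36 ± 0.23 (adjusted p = 0.613). Its other probe set did separate contusion, at 191.3 and 409.7, from normal cord, at 490.8, 550.5 and 546.1, with a pooled difference of −0.60 ± 0.27.

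Gap43, the growth cone gene, read 1422, 762.0 and 753.4 in normal cord, 1874, 3588 and 1745 after laminectomy, and 1434 and 1797 in contusion. Normal cord was lowest, with every normal array below every laminectomy and contusion array. The pooled difference was 0.26 ± 0.29 (adjusted p = 0.799), and 0.58 without laminectomy 2 and normal 1. A second Gap43 probe set, reading at most 132.1, gave 0.49 ± 0.47.

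Over the 9 genes the median difference between contused and uninjured arrays was −0.78, against 0.001 over all probe sets, with 8 genes below zero. Of the 5 filament subunits all stood below zero and 1 passed, with a median of −0.98. Without laminectomy 2 and normal 1 the median of the 9 was −0.55 and 0 passed.

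**Figure D2:**
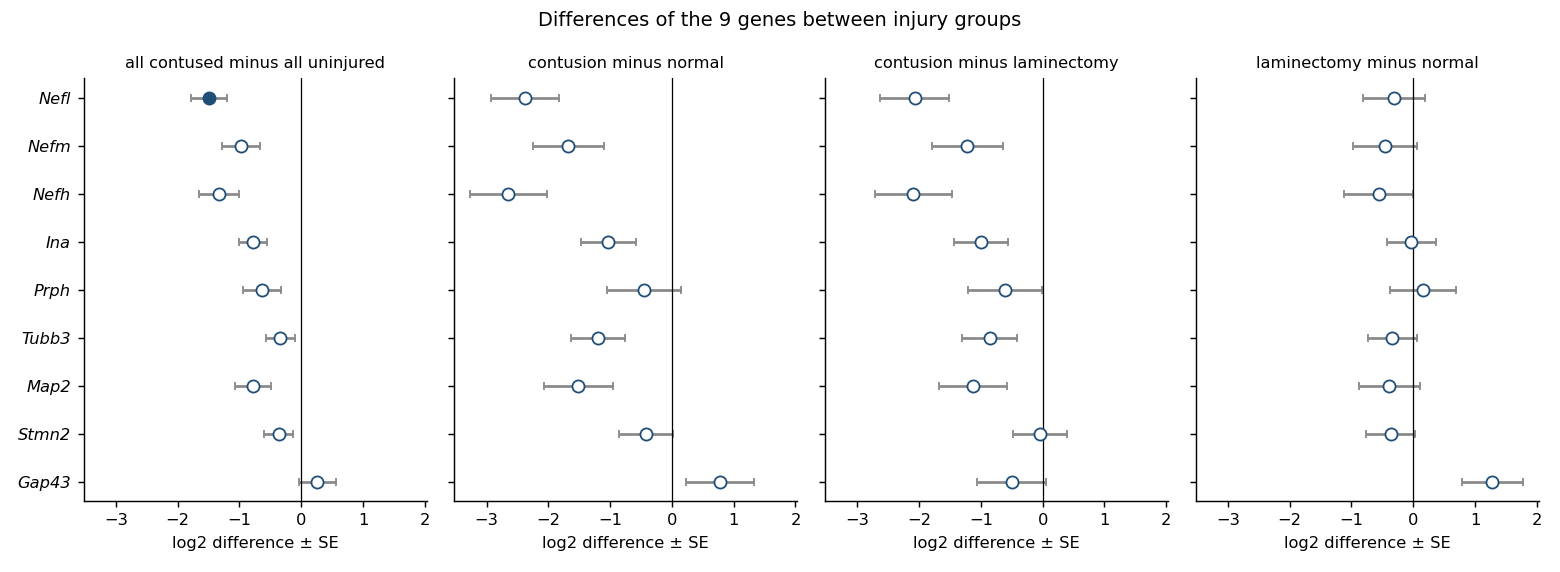
Log2 difference of each gene, with its standard error, in 4 comparisons of injury groups. The filled point, Nefl in all contused minus all uninjured arrays, is the only one past an adjusted p of 0.05. Gap43 lies to the right of zero in all but contusion minus laminectomy, and Prph does so in laminectomy minus normal.

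Set against normal cord alone, untreated contusion stood lower for 8 of the 9 genes, by most for the neurofilament subunits Nefh, Nefl and Nefm. Nefh differed by −2.65 ± 0.62 and Nefl by −2.38 ± 0.56, both with an adjusted p of 0.22 in limma. Nefm differed by −1.67 ± 0.57, Map2 by −1.51 ± 0.55, Tubb3 by −1.20 ± 0.44 and Ina by −1.03 ± 0.44. These 6 genes had both contusion arrays below all normal arrays, as did 11.6% of all probe sets. Gap43 stood higher without overlap, by 0.78 ± 0.55, as did 10.6%. No member passed, and 6 had an unadjusted p under 0.05, while 0.0483% of all probe sets passed and 6.65% had such an unadjusted p. The median of the 9 was −1.20, against 0.01 over all probe sets. Leaving out contusion 1 brought Nefm to −0.89 and Map2 to −0.95, and Tubb3 stood at −0.47 as the mean of its probe sets. Without laminectomy 2 and normal 1, Nefl stood at −2.13, Nefm at −1.70, Nefh at −2.29, Map2 at −1.30, Gap43 at 1.08 and the median of the 9 at −1.23.

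Laminectomy gives the reference that shares the surgery, though its time of collection is not labelled and may differ from that of contused cord. Against it Nefl differed by −2.07 ± 0.56 and Nefh by −2.09 ± 0.62, and 5 genes (Nefl, Nefm, Nefh, Ina and Tubb3) had both contusion arrays below all laminectomy arrays, as did 10.3% of all probe sets. No member passed (adjusted p from 0.822 for Nefl), with 4 at an unadjusted p under 0.05, against 5.38% of all probe sets, of which 0.00322% passed. Gap43 stood on the same side here, at −0.50 ± 0.55, and Stmn2 near zero, at −0.05 ± 0.44. The median of the 9 was −0.996, against 0.015 over all probe sets, and −0.64 without laminectomy 2 and normal 1. Without contusion 1, Nefh stood at −1.21 and Nefm at −0.43. Both comparisons use the same 2 contusion arrays.

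After the operation alone 7 of the 9 genes stood below normal cord and 2 above it, with Gap43 the furthest from zero. With 3 arrays in each group, an absence of calls does not show that the genes were unchanged. Gap43 was 2.43-fold higher after laminectomy, by 1.28 ± 0.50 with a raw p of 0.0181, and did not pass (limma, adjusted p = 0.799). Its laminectomy arrays all lay above its normal arrays, as they did for 4.43% of probe sets. Its weak second probe set stood higher too, by 2.07 ± 0.80, but its arrays overlapped. Nefm was the member whose laminectomy arrays all lay below normal ones, by −0.46 ± 0.51, which holds for 4.14% of probe sets. The other 7 genes ran from −0.56 for Nefh to 0.15 for Prph. No member passed and 1 had an unadjusted p under 0.05, against 5.59% of all probe sets, of which 0.00644% passed. The median of the 9 was −0.34, against −0.014 over all probe sets. Without laminectomy 2 and normal 1, Gap43 stood at 1.26, Nefm at −0.55 and the median at −0.44.

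Nefl and Gap43 were then set against each other within each array, a pair chosen after their values were seen, which is why no test is given. The log2 signal of Nefl minus that of Gap43 was 2.45, 2.69 and 2.55 in normal cord. After laminectomy it was 1.20, 0.85 and 0.87, and in contusion −0.41 and −0.78. The treated arrays ran from −0.49 in X-ray 2 to 0.71 in tempol plus BSO 3. So every normal array lay above every laminectomy array, and every laminectomy array above all 16 contused ones. The group means ± SD were 2.56 ± 0.13 (n = 3) in normal cord and 0.98 ± 0.20 (n = 3) after laminectomy. In contusion the mean was −0.59 ± 0.26 (n = 2).

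Of all 31041 other probe sets set against Gap43 in this way, 2, or 0.00644%, gave these 3 levels. As Nefl was picked with its values in view, this share describes the pattern and lends it no support. They were Nefl and Tmem229a, a transmembrane protein gene. The first step of the pattern, with every normal array above all other arrays, was met by 5 of the 8 other members (Nefl, Nefm, Nefh, Ina and Map2) and by 6.22% of probe sets. With the second Nefl probe set, normal cord again lay apart, at 1.33 to 1.53, but laminectomy (−0.41 to 0.10) overlapped contused cord (−1.43 to −0.23). Without laminectomy 2 and normal 1 the difference between laminectomy and normal cord was −1.58, against −1.59 with them. Most of this step lay in Gap43, which differed by 1.28 ± 0.50 between these groups, while Nefl differed by −0.31 ± 0.50.

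**Figure D3:**
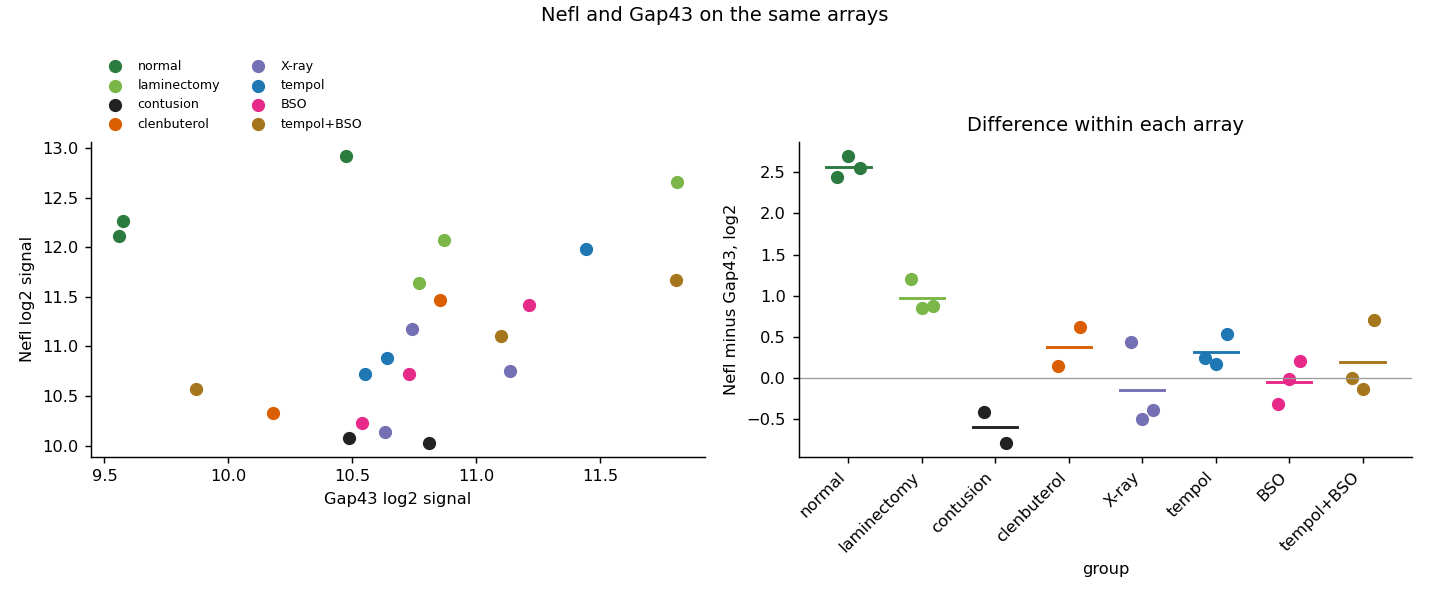
Left, log2 signal of Nefl against that of Gap43 on each of the 22 arrays, coloured by group. Right, Nefl minus Gap43 on each array with group means as bars, where normal cord (2.45 to 2.69), laminectomy (0.85 to 1.20) and the contused arrays (−0.78 to 0.71) do not overlap.

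Treated contused cord was compared with contusion alone to ask whether clenbuterol, X-rays, tempol or BSO move these genes. No member passed in any of the 5 comparisons or in the F test over all of them (F test: adjusted p from 0.989 to 1 in limma, with 0 members at an unadjusted p under 0.05). The share of all probe sets that passed was 0.00322% for clenbuterol and 0% for X-ray, tempol, BSO, tempol plus BSO and the F test. At an unadjusted p under 0.05 stood 1 member for clenbuterol, 0 for X-ray, 1 for tempol, 2 for BSO and 1 for tempol plus BSO. The same shares of all probe sets were 5.36%, 4.81%, 2.82%, 3.46% and 3.98%. All 5 comparisons share the same 2 contusion arrays, so they cannot be read as separate support for each other.

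On the brightest probe sets of Nefl and Tubb3 all 14 treated arrays lay above both contusion arrays, as they did for 0.49% of probe sets. On the second Nefl probe set 8 of the 14 did and 0 lay below both, and on the second Tubb3 probe set 4 lay above both and 8 below. Nefl read 1285 and 2841 with clenbuterol, 2318, 1128 and 1722 with X-rays, and 1891, 1695 and 4056 with tempol. With BSO it read 1197, 1687 and 2739.6, and with both drugs 2199, 3260.3 and 1525. The lowest treated array, X-ray 2, thus lay just above the higher contusion array at 1082. Differences from contusion were 1.14 ± 0.56 for tempol, 1.06 ± 0.56 for tempol plus BSO, 0.84 ± 0.61 for clenbuterol, 0.73 ± 0.56 for BSO and 0.63 ± 0.56 for X-rays. Without tempol 3 the tempol value was 0.75, and without clenbuterol 2 the clenbuterol value was 0.27. Without X-ray 1 it was 0.39 for X-rays, and without BSO 3 it was 0.42 for BSO.

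Tubb3 read 672.7 and 1003 with clenbuterol, 516.5, 583.8 and 716.4 with X-rays, and 1284, 545.3 and 892.0 with tempol. With BSO it read 937.3, 812.0 and 919.9, and with both drugs 1022, 782.4 and 795.3. The BSO arrays lay within a narrow band, well above contusion at 416.1 and 485.0. Differences ran from 0.42 ± 0.44 for X-rays to 0.98 ± 0.44 for BSO. As the mean of both Tubb3 probe sets the BSO difference was 0.42. On the second probe set differences ran from −0.34 for X-rays to 0.24 for tempol plus BSO.

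Nefh had the largest differences of the 9 genes in 4 of the 5 comparisons, tempol being the exception. They were 1.54 ± 0.68 for clenbuterol, 1.31 ± 0.62 for BSO, 1.19 ± 0.62 for tempol plus BSO, 1.14 ± 0.62 for X-rays and 1.04 ± 0.62 for tempol. These values rest on contusion 1, the array at 797.1. Without it they were 0.66, 0.43, 0.31, 0.26 and 0.16 in the same order. Against both contusion arrays 9 of the 14 treated arrays were higher for Nefh, 9 for Map2, 10 for Ina and 4 for Nefm. For counts short of all 14, here and for the other genes and probe sets, the share over all probe sets was not counted. The weaker Map2 probe set went the other way, with 10 treated arrays below both contusion arrays and 2 above, and differences from −2.01 for clenbuterol to −0.13 for tempol.

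Ina stood higher than contusion in 4 treated groups, from 0.26 ± 0.44 for BSO to 0.54 ± 0.48 for clenbuterol, and at −0.19 ± 0.44 with both drugs. Its 3 tempol arrays were nearly equal, at 447.0, 445.4 and 450.4, while those with both drugs were 208.0, 404.5 and 277.0. The last value turned sign, to 0.34, as the mean of both Ina probe sets. Of the growth cone genes, Stmn2 ran from −0.46 for X-rays to 0.25 for tempol and Gap43 from −0.13 for clenbuterol to 0.28 for tempol plus BSO. On the second probe sets Ina ran from −0.12 for X-rays to 1.85 for clenbuterol, Stmn2 from 0.18 for BSO to 0.59 for tempol plus BSO, and Gap43 from 0.33 for clenbuterol to 1.51 for tempol plus BSO. For Gap43 6 of the 14 treated arrays lay above both contusion arrays and 2 below both, and for Prph 4 lay above and 7 below.

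The medians over the 9 genes were 0.76 for clenbuterol, 0.55 for tempol plus BSO, 0.46 for tempol, 0.42 for X-rays and 0.27 for BSO. The same medians over all probe sets lay between −0.035 and 0.021. Those of the 9 genes depended on the contusion arrays. Without contusion 1 they were 0.19 for clenbuterol and 0.14 for tempol plus BSO. Without contusion 2 they were 1.04 for tempol, 0.71 for BSO and 1.04 for tempol plus BSO. The interaction, the difference of both drugs together from the sum of their single differences, was below zero for 8 of 9 genes, with a median of −0.57 and a range of −1.16 for Nefh to 0.27 for Nefm. No member passed it and 0 had an unadjusted p under 0.05, against 3.44% of all probe sets, of which 0% passed. The mean of the contusion arrays enters it with a plus sign, so it shares them as well, and a low contusion mean lowers it.

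**Figure D4:**
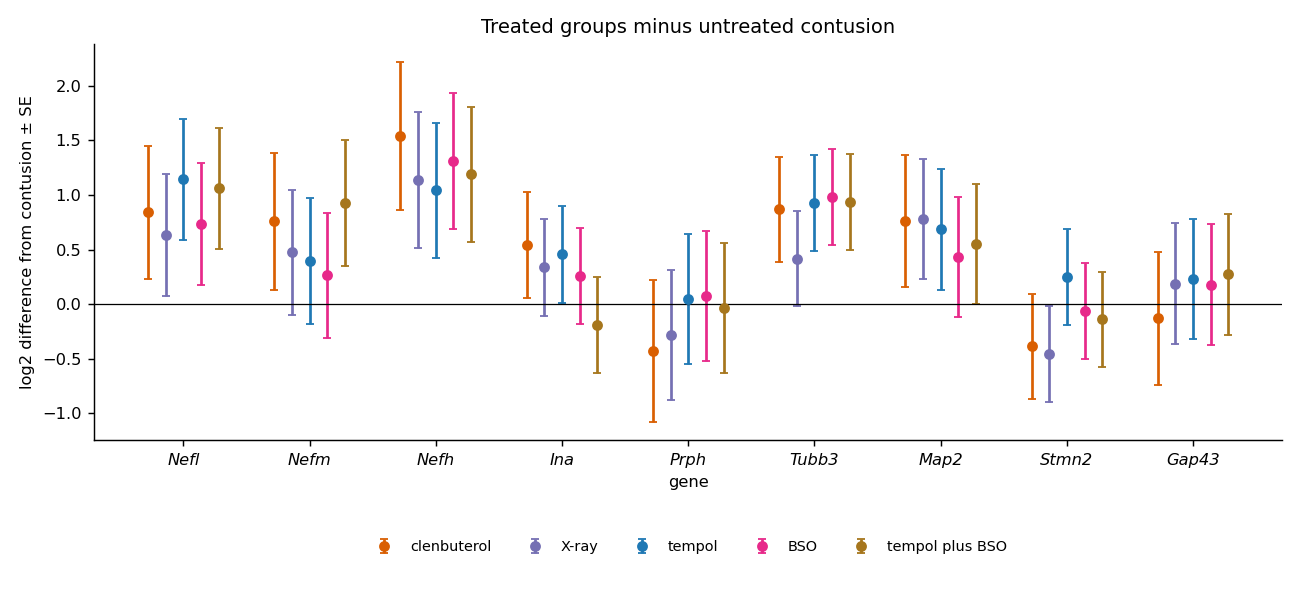
Log2 difference from untreated contusion, with its standard error, for each gene in the 5 treated groups, on 1 shared pair of contusion arrays. On the brightest probe set of each gene, which is the one plotted, Nefl, Nefm, Nefh, Tubb3 and Map2 lie above zero in all 5 groups, and Prph, Stmn2 and Gap43 scatter around zero. The second probe sets of Map2 and Tubb3, not plotted, gave −2.01 and −0.29 for clenbuterol.

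Groups were then ordered by their means. For Nefl the order was normal (12.43 in log2 signal), laminectomy (12.13), tempol (11.20), tempol plus BSO (11.12), clenbuterol (10.90), BSO (10.79), X-ray (10.69) and contusion (10.06). Only X-ray and contusion, among the neighbours in that order, did not overlap. For Tubb3 the order also ended with X-ray (9.23) and contusion (8.81), again without overlap. X-ray arrays lay above both contusion arrays for a larger share of all probe sets than the 10.6% with contusion above normal cord without overlap. On the second Nefl probe set X-ray and contusion overlapped. On the second Tubb3 probe set all X-ray arrays lay below both contusion arrays. For Nefm only normal and laminectomy did not overlap. In Nefh, Ina, Prph, Map2, Stmn2 and Gap43 every pair of neighbours overlapped. Gap43 was highest after laminectomy (11.15) and lowest in normal cord (9.87), the group in which Nefl was highest.

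Across the 22 arrays Nefl, Nefm and Nefh varied together most closely of the filament subunits. Nefm and Nefh had the highest correlation of any pair (r = 0.835), followed among the subunits by Nefl with Nefh (0.79) and Nefl with Nefm (0.75). After each group's mean was removed these were 0.74, 0.50 and 0.49. The 10 pairs of the 5 filament genes had a median r of 0.60, and 0.40 without group means. On the 20 arrays other than laminectomy 2 and normal 1 these medians were 0.45 and 0.35. There Prph varied little with the others, with an r of 0.04 with Nefl, 0.18 with Nefm, 0.26 with Nefh and −0.01 with Ina. Map2 went with Nefm and Nefh at 0.81 each. These points share arrays, scaling and RNA quality, and they are given as a description.

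Gap43 changed its company once group means were removed. With Nefl its r was 0.15 over all arrays and 0.83 within groups, and its 8 pairs went from a median of 0.05 to 0.55. Over the 20 arrays without laminectomy 2 and normal 1 the r with Nefl was 0.04 and, within groups, 0.79. Stmn2 stood aside from the rest, with a median of 0.15 over its 8 pairs and −0.18 within groups. Over all 36 pairs the medians were 0.36 and 0.30, and 0.19 and 0.24 without those 2 arrays.

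**Figure D5:**
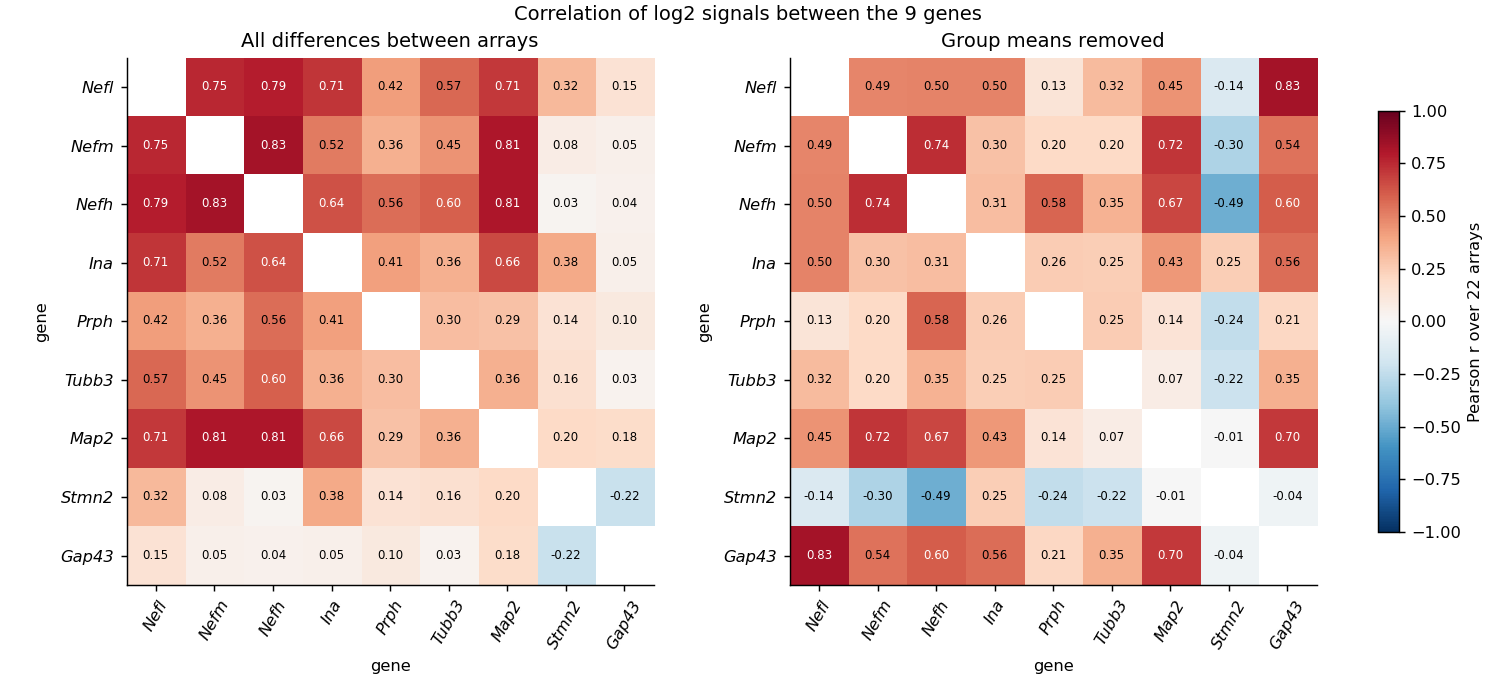
Pearson correlation of log2 signals over 22 arrays for each pair of the 9 genes, before (left) and after (right) the group means were removed. The block of Nefl, Nefm, Nefh and Map2 is red in both, the row of Gap43 is pale on the left and red on the right, and Stmn2 is pale or blue.

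Other genes were ranked by their likeness to the mean standardized profile of the 9 over the 22 arrays. Among 12042 genes compared, with a median r of −0.02 and a 99th percentile of 0.73, the highest was Ptprd, a receptor tyrosine phosphatase of axons and synapses (r = 0.93, and 0.92 within groups). Ndn, which encodes the neuronal growth suppressor necdin (0.91), Ppp3ca, the catalytic subunit of calcineurin (0.90), and Apc2, a neuronal relative of the adenomatous polyposis coli gene that binds microtubules (0.89), came next. Epb41l1 of the membrane skeleton, the dynein light chain gene Dynll2, the synaptic vesicle gene Vamp1, Tspyl4, Gprasp1 and Ppm1b followed, at 0.89 to 0.87. With laminectomy 2 and normal 1 left out these r ran from 0.76 to 0.88, with a 99th percentile of 0.64, and 5 of the 10 genes remained among the 10 most alike. The probe set of Apc2 is of a type that may read unrelated transcripts too.

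Other parts of the axonal cytoskeleton were read from lists chosen with earlier results of these data known. In all contused minus all uninjured arrays 10.4% of all probe sets had an unadjusted p under 0.05, 5.41% lower and 4.95% higher, beside which the counts of the lists stand. Of 20 further tubulin and microtubule genes, 16 stood below zero in contused cord and 4 above, with a median of −0.52 and 0 past the threshold. The lowest p-values were those of the stathmin Stmn1 (−1.15 ± 0.26, adjusted p = 0.0721), the plus-end binding gene Mapre3 (−0.95 ± 0.25) and Stmn3 (−0.56 ± 0.21), and 7 had an unadjusted p under 0.05. Of 18 transport motor genes 11 stood below zero (median −0.19), among them Dync1i1 of dynein (−1.11 ± 0.32) and the kinesin light chain Klc1 (−0.77 ± 0.27), while the kinesin Kif1b stood at 1.92 ± 0.57. None passed, with 3 at an unadjusted p under 0.05.

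The membrane skeleton under the axon had 12 of 17 genes below zero (median −0.19), among them Epb41l1 (−1.08 ± 0.30), the spectrin Sptbn1 (−0.87 ± 0.27) and Epb41l3 (−0.75 ± 0.22). None passed, with 4 at an unadjusted p under 0.05. The kinases, phosphatases, proteases and ligases that act on neurofilaments had a median of 0.01 over 13 genes, 7 above zero and 6 below, and none passed, with 2 at an unadjusted p under 0.05. Ppp3ca stood at −0.997 ± 0.28, Cdk5r1, the p35 activator of the kinase Cdk5, at 0.86 ± 0.30, and the calpain Capn2, a protease that cuts neurofilaments, at 0.52 ± 0.25.

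Genes tied to axon growth and regeneration are the list to which Gap43 is closest by function. Of 22, 13 stood above zero, with a median of 0.27, and 2 rose past the threshold. The β-tubulin Tubb6 rose by 3.03 ± 0.42 (limma, adjusted p = 0.00213), and by 1.54 with an adjusted p of 0.086 as the mean of its probe sets. Gal, which encodes the neuropeptide galanin, rose by 1.42 ± 0.25 (adjusted p = 0.0142), a call that was lost when laminectomy 2 or normal 1 was left out and, at 1.10 with an adjusted p of 0.115, when both were. Hspb1, a small heat shock protein that also binds intermediate filaments, stood at 0.63 ± 0.29 here. It rose after laminectomy over normal cord (3.35 ± 0.49, adjusted p = 0.0245), the same comparison in which Gap43 stood 2.43-fold higher. That call was lost without laminectomy 1 or 2, normal 2 or 3, and with only the compared groups fitted.

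Intermediate filaments of other cells stood on both sides of zero. Gfap of astrocytes was at −0.54 ± 0.22, nestin (Nes) at 1.00 ± 0.38 and desmin (Des) at 1.20 ± 0.44. The 10 genes of this list had a median of 0.30, with 7 above zero, 0 past the threshold and 3 at an unadjusted p under 0.05. The uninjured reference is uneven here, since their summed signal was 13315 to 15950.0 in normal cord and 31684 to 52588 after laminectomy. In contusion minus normal 8 of the 10 stood above zero, with a median of 0.89 and 0 past the threshold.

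Markers of several cell types moved with the injury beside the 9 genes, and their part in these differences was not tested. All 14 general neuron markers measured stood below zero (median −0.52). Vsnl1, a calcium sensor of neurons, fell by 1.12 ± 0.24 on the log2 scale (adjusted p = 0.0477), a call lost when any of 20 of the 22 arrays was left out, all but clenbuterol 2 and X-ray 3, and also with the replicate block (adjusted p = 0.0727) and as the mean of its probe sets (0.0572). All 10 interneuron markers stood below zero (median −0.81), 8 at an unadjusted p under 0.05 and 0 past the threshold, with the smallest p-values for Calb2 (−0.79 ± 0.20), the GABA-synthesizing enzyme Gad1 (−0.91 ± 0.31) and the GABA transporter of vesicles Slc32a1 (−0.84 ± 0.33). Their summed signal ran from 6845 to 10485 on uninjured and from 4086 to 6535 on contused arrays, without overlap. This sum rests mostly on Calb2, Penk and Slc17a6, the brightest of the 10. How often sums of other genes separate so was not counted. Motor neuron markers, with Prph among the 7 measured, had a median of −0.20 and sensory ganglion markers, 10 measured, of −0.03. None of either list passed, with 2 and 1 at an unadjusted p under 0.05. The smallest p-values among motor neuron markers were those of the choline transporter Slc5a7 (−0.74 ± 0.31), the homeobox gene Isl2 (0.85 ± 0.37) and Prph, and among sensory markers those of the peptide genes Calcb (0.80 ± 0.35) and Calca (0.66 ± 0.46) and the sodium channel Scn11a (0.67 ± 0.57).

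Of the glial lists, 11 of 11 oligodendrocyte and myelin genes stood below zero (median −0.60), and Omg (−2.18 ± 0.35, adjusted p = 0.00585) and Ugt8 (−1.39 ± 0.21, adjusted p = 0.00427) passed. Ugt8 stood at −0.49 with an adjusted p of 0.589 as the mean of its probe sets. Of 10 astrocyte genes 8 stood below zero (median −0.76), and Slc4a4 (−1.36 ± 0.26, adjusted p = 0.0257) and Aqp4 (−1.23 ± 0.26, adjusted p = 0.0482) passed. The Aqp4 call was lost when any of 21 arrays was left out, all but tempol 3. That of Slc4a4 was lost without laminectomy 2 or 3, contusion 1, normal 1 or normal 2, and as the mean of its probe sets (−1.07, adjusted p = 0.149). Both calls, like those of Vsnl1 and the neutrophil gene S100a8, were lost without laminectomy 2 and normal 1, and Aqp4 stood at −0.37 as the mean of its probe sets. Summed astrocyte signal ran from 15284 to 35562 on uninjured and from 7010.1 to 21012 on contused arrays.

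Blood and immune lists stood above zero. All 5 neutrophil markers did (median 1.01), with S100a9 (2.70 ± 0.40, adjusted p = 0.00328) and S100a8 (2.00 ± 0.39, adjusted p = 0.0318) past the threshold, the latter lost when any of 11 arrays was left out (each laminectomy and contusion array, clenbuterol 1, X-ray 2 and 3, tempol 1, normal 1 and 3) and with the replicate block (adjusted p = 0.0601). All 4 red cell markers did too (median 0.95), and Hbb passed (2.99 ± 0.34, adjusted p = 0.000166). Their summed signal was 723.8 to 1552 on uninjured and 3309.5 to 16607 on contused arrays. Of 10 microglia and macrophage markers 8 stood above zero (median 0.38) and none passed, with 2 at an unadjusted p under 0.05. Lysozyme (Lyz2) stood at 0.90 ± 0.22, Tyrobp at 0.67 ± 0.25 and the receptor gene Csf1r at −0.68 ± 0.33. Endothelial (8 genes, median −0.13) and Schwann cell markers (5 genes, median 0.14) had none past the threshold, with 1 each at an unadjusted p under 0.05. Their smallest p-values were those of Cldn5 (−0.85 ± 0.28), Rgs5 (−0.42 ± 0.27) and Flt1 (0.30 ± 0.23) on the vessel list. On the Schwann cell list they were those of Sox10 (−1.04 ± 0.30), Pmp2 (0.73 ± 0.39) and Ngfr (0.46 ± 0.36). Sox10 does not mark Schwann cells alone. The lowest signal deposited was 0.3, so no list gene could read 0 on any array. Some markers read low on at least 1 array, among them Mmp8 at 4.1, Chat at 5.8 and Cd163 at 8.1.

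When laminectomy 2 and normal 1 were left out, 6 list genes passed in all contused minus all uninjured arrays: Tubb6, Omg, Ugt8, S100a9, Hbb and Lyz2 (1.13, limma, adjusted p = 0.0459), of which Lyz2 had not passed with them. The list medians were then −0.48 for general neuron markers, −0.62 for interneuron markers, −0.62 for astrocyte genes, −0.53 for oligodendrocyte genes, 1.09 for neutrophil markers and 0.23 for axon growth genes. Those of the tubulin and microtubule genes stood at −0.25, of transport motors at −0.17 and of the membrane skeleton at −0.19. The lists with a median that changed sign were the kinases and proteases, at −0.03, and the endothelial markers, at 0.02.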

How the data were processed

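Total RNA of 22 rat spinal cord samples was read on Affymetrix arrays. The deposited values are signal intensities on a linear scale, 1 per probe set and array. The submitters' processing notes name RMA, but the deposited intensities are not logarithmic, and the mean of every array is 250 after trimming 2% from both ends. No genome build is given for the arrays in the sources used here.

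The 57 control probe sets were left out, and log2 signals of the other 31042 were fitted in R 4.3.3 with limma 3.58.1, with 8 group means and eBayes (14 residual and 4.713 prior degrees of freedom). Two-sided p-values were adjusted over these 31042 by the method of Benjamini and Hochberg (threshold 0.05). Values after ± are standard errors unless SD is named. The number of arrays limits the precision: the median standard error was 0.40 for all contused against all uninjured arrays, 0.68 for 3 arrays against 3 and 0.76 for 3 against 2. Gene names come from the platform annotation, by which 20826 probe sets have 1 symbol, 436 several and 9780 none; names were given only from probe sets with 1. Of 212 list genes 191 were measured.

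All 9 members are named, with list genes past the threshold or, where a list had none, its 3 with the smallest p, and the 10 genes most like the members among those with a mean log2 signal of at least 6. The members and lists were chosen with earlier results of these data known, and the pair of Nefl and Gap43 after their values were seen. The labels do not say whether replicate numbers pair the samples. Over 71 pairs of arrays with the same number, deviations from group means correlated at −0.20 to 0.20, with 7 pairs over 0.1. Their mean was −0.002, against 0.001 for different numbers. Whether arrays of the same number were handled together was not tested. Alternatives were quantile normalization, an offset of 32, a filter on low signal, trend and robust settings, array weights, a replicate block, the mean of a gene's probe sets, only the compared groups, and arrays left out. Those for list genes, correlations and likeness were chosen after seeing the data. With a group of 2 reduced to 1 array, the array that remains is taken to vary as the other groups do. No pair of arrays correlated above 0.843, so none was treated as a duplicate.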

Additional observations from a re-analysis of the deposited data

How the results depend on the processing

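The differences of all 9 members in the 10 comparisons kept their sign and their side of the threshold in 1389 of 1458 alternative values, lost the threshold in 13, gained it in 2 and turned sign in 54. For all contused minus all uninjured arrays, 1 member passed in the reported fit, 2 with log2 of signal plus 32 and with trend and robust settings (Nefl and Nefh), and 0 with the replicate block (Nefl −1.48, adjusted p = 0.0652) and without laminectomy 2 and normal 1. Leaving out single arrays gave 0 to 1. The replicate block, with numbers that are not labelled as pairs, changed no other call of a member, and also ended those of Vsnl1 and S100a8. The adjusted p of Nefl ran from 0.00521 to 0.213 over its alternatives. With single arrays left out, the median of the 9 genes ran from −1.20 to −0.56 for contusion minus laminectomy, and over the treated groups minus contusion from 0.19 to 1.16 for clenbuterol, 0.16 to 1.04 for tempol, 0.084 to 0.71 for BSO and 0.14 to 1.04 for tempol plus BSO. For clenbuterol it was 0.29 with the mean of a gene's probe sets. The 28 differences that turned sign had a median size of 0.24, with 0.78 as the largest. Stmn2 in contusion minus laminectomy was 0.084 without laminectomy 2 and normal 1 and ran from −0.43 to 0.34 with single arrays left out. In laminectomy minus normal Ina ran from −0.39 to 0.17, Prph from −0.46 to 0.60 and Map2 from −0.65 to 0.055. Ina in tempol plus BSO minus contusion was 0.34 with the mean of its probe sets and ran from −0.44 to 0.037. Of 34 further differences in the treated comparisons and the interaction, 23 turned sign in at least 1 alternative and 0 passed. Nefl minus Gap43 in laminectomy minus normal was −1.97 with the mean of probe sets, against −1.59, and in all contused minus all uninjured arrays −1.39 with the other Nefl probe set, against −1.75. The cause of these changes was not tested. Groups of 2 and 3 arrays limit what could pass: an absence of calls in the treated groups does not show that the genes are alike there.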
